A study of Mus musculus with 2 samples.

Results

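Intervals lying less than 10 kb from another interval were collected from the Myc-Tag ChIP-seq track of a Lck-Dlx5 mouse T-cell lymphoma and joined into clusters. An interval is a stretch of genome that the authors' peak caller scored as enriched, and its summit is the position of the highest signal within it. The members were chosen by these calls, under a rule that uses no other measurement. The gap was measured from the end of an interval to the start of the next on chromosomes 1 to 14 and 16 to 19, after intervals also called in the input had been dropped. Of 3477 Myc-Tag intervals, 3190 lay on these 18 chromosomes and 23 of those overlapped an input interval. Among the 3167 kept, 479 were clustered and 2688 were not. The 479 formed 217 clusters, made up of 193 pairs, 16 clusters of 3, 3 of 4, 2 of 5 and 1 each of 6, 8 and 9 intervals.

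The series holds 1 Myc-Tag ChIP library and 1 input library, with no replicates, so every value describes these libraries and no test between conditions was possible. Both came from mice with a Dlx5 transgene that carries a Myc tag and is driven by the Lck promoter, which is active in thymocytes. The labels call both samples a T-cell lymphoma and a primary tumor, give no treatment or age, and write the strain as C57BL/6 for the ChIP and C57BL/7 for the input. The methods of the study describe a lymphoma cell line and an IgG control instead, and these accounts could not be reconciled from the files. The deposited positions carry the label mm9. However, 59.2% of the kept summits lay within 1 kb of a protein-coding gene end as RefSeq places it on GRCm38 (mm10), where such stretches cover 3.07% of the annotated span, so all positions are given on GRCm38.

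Dlx5 is a homeodomain transcription factor of the Distal-less family, and homeodomains recognize short AT-rich sequences, here TAATT. It is not normally expressed in thymocytes. Genes can lie side by side in arrays, the best known in dividing cells being the replication-dependent histone genes, which are short, have no introns and are transcribed as DNA is copied. Their promoters are known for TATA and CCAAT boxes.

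Several promoters are shown here because clustered summits lay in or next to them or, at H1f2, because the interval covered the start. Each runs from 250 bases before to 50 bases after the annotated start of the gene, on the strand of the gene, from RefSeq on GRCm38.p6. Capitals mark the motif TAATT, the CCAAT box and the TATA box letters TATAAA, each searched on both strands, and none overlap here. H1f2 (chr13:23738557-23738856, plus strand) encodes a linker histone and belongs to the tallest clustered summit. H2bc8 (chr13:23571150-23571449, plus strand) and H2ac13 (chr13:21716162-21716461, plus strand) encode core histones, Pcna (chr2:132253131-132253430, minus strand) the DNA polymerase clamp, and Cd3d (chr9:44981536-44981835, plus strand) a chain of the T-cell receptor complex.
H1f2: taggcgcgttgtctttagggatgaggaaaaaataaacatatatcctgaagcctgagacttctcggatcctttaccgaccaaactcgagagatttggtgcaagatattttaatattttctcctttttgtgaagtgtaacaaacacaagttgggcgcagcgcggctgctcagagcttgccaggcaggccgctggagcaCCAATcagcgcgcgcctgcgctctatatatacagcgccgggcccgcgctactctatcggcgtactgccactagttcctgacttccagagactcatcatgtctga
H2bc8: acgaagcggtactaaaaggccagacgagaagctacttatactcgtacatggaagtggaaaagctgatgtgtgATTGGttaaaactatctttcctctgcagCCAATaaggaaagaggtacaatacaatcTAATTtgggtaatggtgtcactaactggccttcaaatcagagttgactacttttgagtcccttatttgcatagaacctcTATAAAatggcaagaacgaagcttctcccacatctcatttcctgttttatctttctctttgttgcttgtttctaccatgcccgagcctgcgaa
H2ac13: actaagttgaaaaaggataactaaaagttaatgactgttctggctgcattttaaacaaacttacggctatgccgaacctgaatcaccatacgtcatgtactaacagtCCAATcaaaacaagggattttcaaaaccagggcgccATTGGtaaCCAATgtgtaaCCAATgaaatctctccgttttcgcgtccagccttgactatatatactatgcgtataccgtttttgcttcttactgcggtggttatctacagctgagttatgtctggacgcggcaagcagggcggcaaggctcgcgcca
Pcna: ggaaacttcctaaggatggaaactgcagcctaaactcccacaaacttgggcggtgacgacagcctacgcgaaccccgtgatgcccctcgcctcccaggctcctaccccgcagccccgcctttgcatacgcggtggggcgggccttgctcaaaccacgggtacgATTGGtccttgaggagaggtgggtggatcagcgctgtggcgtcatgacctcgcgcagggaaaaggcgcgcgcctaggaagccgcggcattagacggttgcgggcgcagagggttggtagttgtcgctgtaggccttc
Cd3d: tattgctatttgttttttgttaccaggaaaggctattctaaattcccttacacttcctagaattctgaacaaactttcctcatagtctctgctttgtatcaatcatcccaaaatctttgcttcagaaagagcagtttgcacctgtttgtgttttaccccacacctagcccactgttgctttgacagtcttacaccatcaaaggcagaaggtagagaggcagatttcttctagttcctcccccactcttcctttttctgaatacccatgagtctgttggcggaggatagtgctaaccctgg
The H2bc8 summit lay 24 bases downstream of the start, the nearer of the Pcna summits at -36, just upstream, and the H2ac13 summit at -12. Most summit positions fell on multiples of 16 bp, so the side of the start on which the H2ac13 summit lay is not resolved. The Cd3d summit lay 102 bases and the H1f2 summit 745 bases downstream, both outside the stretch shown. H2bc8 alone among these 5 held TAATT, whose first base lies at -122 from the start. It also held TATAAA at -43, and CCAAT 2 times. H2ac13 held CCAAT 4 times counting both strands, H1f2 and Pcna held it 1 time each, and Cd3d held none of the motifs.

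Summit height, a whole-number score whose normalization is not given in the sources used here, had the same median in clustered and unclustered intervals. Both medians were 15, and both interquartile ranges ran from 13 to 19. The clustered heights reached 73 and the unclustered heights 66. Heights of at least 20 were found in 110 of 479 clustered intervals (23.0%, 95% Wilson interval 19.4 to 26.9) and in 520 of 2688 unclustered intervals (19.3%, 17.9 to 20.9). Median width was 762 bp against 736 bp. These values come from the calls that chose the members and are given as a description. The Wilson intervals cover counting error only and treat summits as separate, although members of a cluster share their surroundings. The depth behind a height is unknown.

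Gaps within clusters ranged from 2 to 9898 bp with a median of 2659 bp. Of the 262 neighbouring pairs, 54 were separated by less than 250 bp (20.6%, 16.2 to 25.9), 32 by 250 to 1000 bp, 96 by 1000 to 5000 bp and 80 by 5000 bp or more. A further 132 neighbouring pairs on the same chromosomes had gaps from 10 to under 20 kb, and 115 had gaps from 20 to under 30 kb. Counted per kb of spacing, the pairs were densest below 250 bp and thinned out in each wider class. Clusters spanned 858 to 34943 bp, with a median of 5446 bp. The taller height of a pair was at a median of 1.29 times the lower. Heights were equal in 24 pairs, and the taller reached at least 2 times the lower in 29. All kept heights had quartiles of 13 and 19, and no ratio was computed for intervals that are not neighbours. Whether neighbours are closer in height than other intervals was thus not tested.

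**Figure D1:**
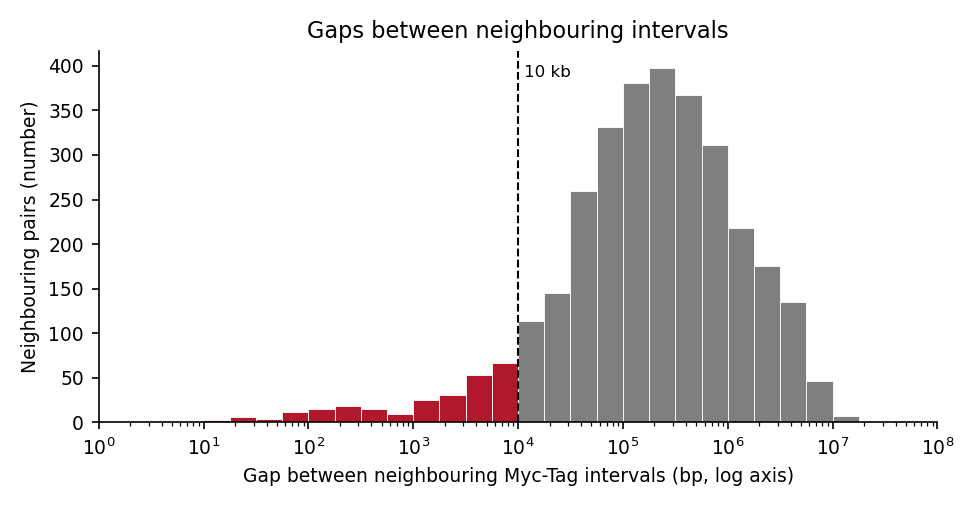
Number of neighbouring interval pairs of the Myc-Tag track (vertical axis) by the gap between them in bp (horizontal log axis), with the 262 pairs inside clusters in red and the 10 kb limit dashed. Most gaps lay above 10 kb, and a small group below 1 kb stands to the left.

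The limit of 10 kb cut through a continuous range. Just inside it lay pairs at Tsfm, Eef1akmt3 and Mettl1 (gap 9898 bp, heights 23 and 19) and at 2 small nuclear RNA genes with no coding gene (9794 bp, 24 and 23). The next pairs inside it were at Arl6ip5 (9734 bp, 16 and 13), at Gabpb2, Mllt11 and Cdc42se1 (9653 bp, 32 and 16) and at Rpf2 and Gtf3c6 (9625 bp, 19 and 28). Just outside it lay neighbours upstream of Ikzf1 (10150 bp, 14 and 25), at Adam10 (10315 bp, 15 and 14) and at Bckdha and Exosc5 (10396 bp, 17 and 22). A pair with no coding gene at either summit on chromosome 13 (10468 bp, 16 and 10) and a pair inside Ets1 (10507 bp, 13 and 12) followed. The taller Ikzf1 interval and the first Ets1 interval of these outside pairs were still members through a nearer neighbour on their other side.

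The clusters were spread unevenly over the chromosomes. On chromosome 13, 57 of 162 kept intervals were clustered (35.2%, 28.3 to 42.8). Of the 57, 34 had a summit within 1 kb of an outer end of a clustered histone gene. Over all 18 chromosomes 15.1% were clustered (13.9 to 16.4). Chromosome 17 followed with 20.6% (33 of 160), chromosome 10 with 19.9% (34 of 171) and chromosome 11 with 54 of 284. The lowest share was on chromosome 16, with 4 of 110 (3.64%, 1.42 to 8.98). The number of kept intervals per 100 coding genes was 19.5 on chromosome 13 and 16.2 on chromosome 16. These chromosomes thus differed less in how many intervals they held than in how many were neighbours. Over all 18 chromosomes the number ran from 10.3 on chromosome 7 to 19.6 on chromosome 18.

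The largest cluster held 9 intervals over 34943 bp at chr13:23550711-23585653, within the main histone gene array. Its heights in genome order were 24, 55, 12, 11, 15, 10, 11, 19 and 20. The summit of 55 lay at H1f3, a linker histone gene, and that of 24 at H4c6, while the low summits lay at H3c6, H2ac8, H2bc8, H2bc7, H2ac7 and H3c4. The linker histone summit was thus more than 2 times as high as any other in the cluster. The last summit, of 20, lay inside H2bc6, at 754 bp from an annotated start and 1546 bp from the nearest outer gene end. It was not counted among the summits at histone genes.

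The cluster of 8 intervals at chr13:23738597-23764949 contained the tallest clustered summit. This was the 73 at H1f2, and the heights ran 73, 20, 14, 15, 12, 16, 35 and 26. The summit of 35 lay between H4c1 and H3c1 and that of 26 at H1f1, another linker histone gene, whereas H3c3, H2bc3, H3c2 and H4c2 were at 12 to 20. The gap between the 2 intervals beside H4c1 was 25 bp. The H1f2 summit was the highest of the cluster, while the H1f1 summit was below the 35 beside the core genes H4c1 and H3c1.

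Both remaining histone clusters of 4 or more intervals were compact and held core histone genes only. The 5 intervals at chr13:22034492-22042642 had heights of 11, 15, 13, 20 and 14 at H2ac12, H2bc12, H4c9, H2ac11 and H2bc11. The 4 at chr13:21714895-21719142 had heights of 18, 17, 19 and 25 at H2bc13, H2ac13 and H3c10, over 4248 bp. Heights within each of these clusters differed by less than 2 times.

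The other clusters of 4 or more intervals lay outside the histone arrays. At chr11:116018043-116031384, 6 intervals had heights of 11, 14, 36, 20, 17 and 17. They lay around H3f3b, which encodes the replication-independent histone H3.3, and the last lay in Unk. H3f3b spans chr11:116021961-116026039 on the minus strand, and the first 4 summits, among them the 36 at 116020128 and the 20 at 116021440, lay beyond its 3′ end. At chr6:51457428-51471348, 5 intervals with heights of 11, 12, 17, 18 and 12 covered the end of Nfe2l3 and the shared start region of Hnrnpa2b1 and Cbx3, which encode an RNA-binding protein and a heterochromatin protein. At chr2:132247307-132263820, 4 intervals with heights of 25, 16, 14 and 17 lay at Tmem230, on both sides of the Pcna start and in Cds2. At chr5:149045496-149053168, 4 intervals with heights of 10, 16, 16 and 18 lay along Hmgb1, which encodes an abundant nonhistone chromatin protein, 1 near its 3′ end and 3 within 2528 bp of an annotated start.

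**Figure D2:**
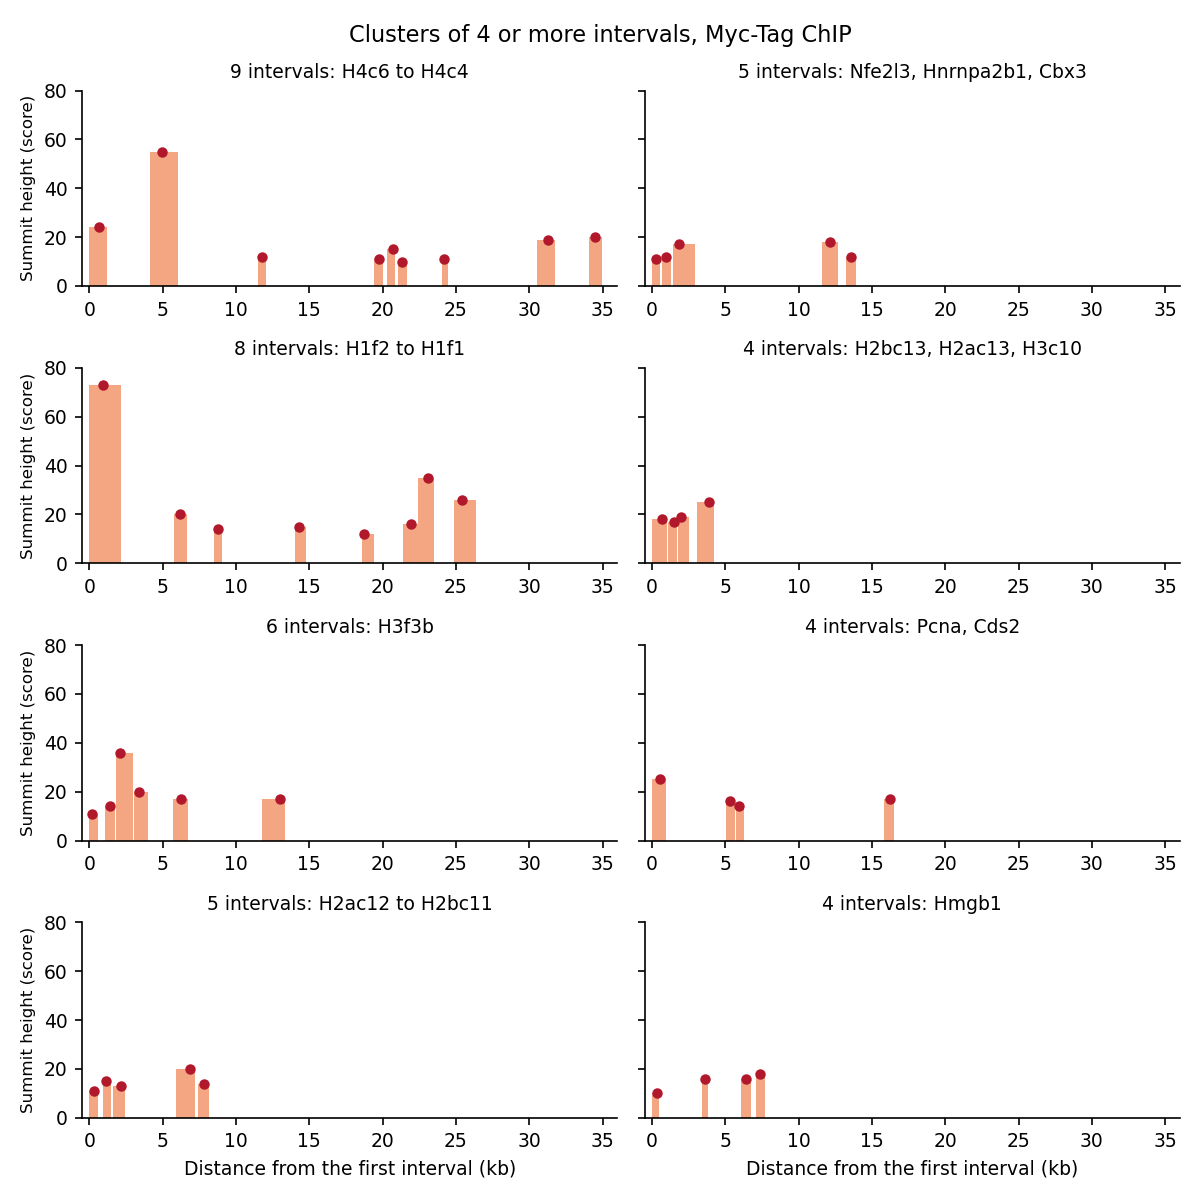
Summit height (score, vertical axis) against distance from the first base of the cluster in kb for the 8 clusters of 4 or more intervals. Each bar spans an interval and each point is a summit, titles give the genes at the summits, and the heights of 73 at H1f2 and 55 at H1f3 stand above the rest.

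Clustered histone genes accounted for 39 clustered intervals in 10 clusters, of which 34 intervals in 7 clusters were on chromosome 13, 4 in 2 clusters on chromosome 3 and 1 on chromosome 11. Of 65 such genes, 50 had an end within 1 kb of a kept summit and 41 (63.1%) within 1 kb of a clustered one. Over all 19889 coding genes of these chromosomes the same shares were 11% and 1.38%. The heights differed by histone class. The 4 summits at H1 genes ran from 26 to 73 with a median of 55, while the 16 at H2A genes ran from 10 to 23 and the 15 at H2B genes from 10 to 26, both with a median of 15. The 13 at H3 genes and the 10 at H4 genes reached 35 in each class, with medians of 19 and 19.5. A summit between divergent genes was counted in both classes, and the count of H1 summits is small. The H2A, H2B, H3 and H4 genes of a class are close copies of each other, while the H1 genes encode subtypes that differ more in sequence. How reads with several matches were placed is not given in the sources used here, so the division of signal among the H2A, H2B, H3 and H4 genes is uncertain.

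Most histone summits lay nearer to the 3′ end of the gene than to its start. For 38 summits a histone gene within 1 kb had a strand in the table, and 30 of them were nearer to its 3′ end than to its start. Of the 38, 26 lay beyond the 3′ end, 9 inside the gene and 3 upstream of the start. The median position was 595.5 bp downstream of the start, in genes with a median length of 489 bp. Genes this short put both ends close to a summit, and 36 of all 39 histone summits (92.3%, 79.7 to 97.3) had a coding start and a coding 3′ end within 1 kb. The interval itself covered the start of the gene for 15 of the 38 summits, among them those at H1f2, H1f3 and H1f5, and for 7 of the 30 nearer to the 3′ end. The H1f2 summit lay 21 bp beyond the 3′ end and the H1f5 summit of 55 lay 152 bp beyond, whereas the H1f3 summit of 55 lay before it, at -127 bp. The summit of 35 was placed on H4c1, at -447 bp from its start, although H3c1 was nearer, at 189 bp. The exceptions nearer to the start included H4c9 (34 bp downstream), H2bc8 (24 bp) and H2ac13 (-12 bp). Of all Myc-Tag summits, 95.7% sat on multiples of 16 bp, so positions are not exact to the base. At 2 summits, those of H2ac13 (-12 bp from the start) and H4c4 (15 bp beyond the 3′ end), the distance was no larger than this step, so the side of the gene end is not resolved, and at H1f2, H2bc8 and H4c9 it was little larger.

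**Figure D3:**
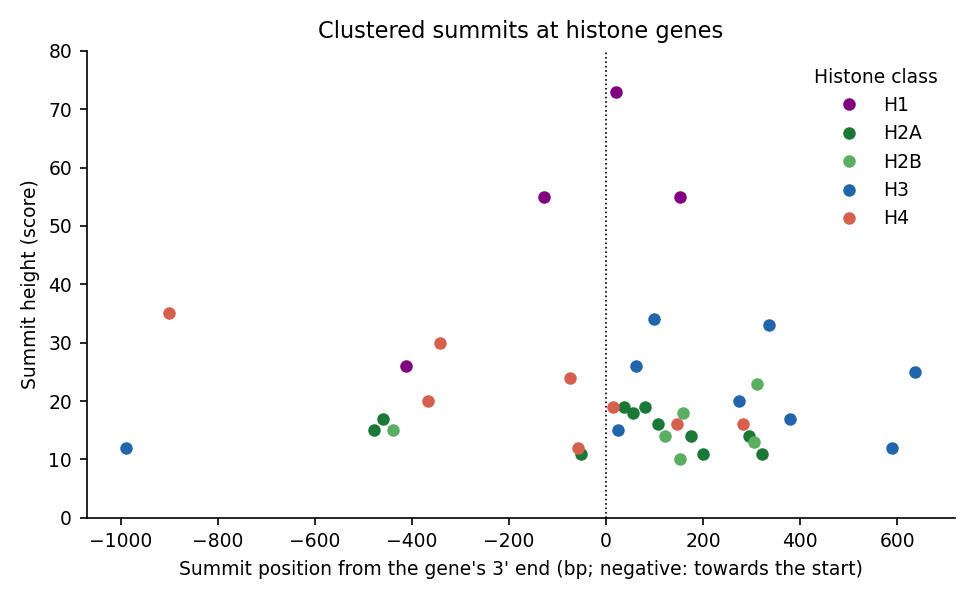
Height (score, vertical axis) of 38 clustered summits at histone genes against position from the 3′ end of the nearest histone gene with a strand in the table in bp, negative towards the start, with color for histone class. Points gather just right of 0, beyond the 3′ end, and 3 of the 4 H1 points stand at 55 or above.

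Away from the histone genes, the clustered and unclustered summits differed in which gene ends lay within 1 kb. Among 428 clustered summits not at histone genes and with strands at hand, 26 had a coding 3′ end but no start within 1 kb (6.07%, 4.18 to 8.75). Among 2595 unclustered ones there were 28 (1.08%, 0.748 to 1.56). The reverse case, a start but no 3′ end within 1 kb, applied to 38.8% (34.3 to 43.5) and 48.5% (46.6 to 50.4). A gene with 1 interval at each end puts both into a cluster if it is shorter than about the joining distance, so gene length and the joining rule bear on this comparison. Their part in it was not tested. Starts and strands were at hand for 17492 of 21900 coding genes, so a start of a missing gene could not be counted.

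The share of clustered summits within 1 kb of any coding gene end was 58.5% (280 of 479, 54.0 to 62.8), beside 59.4% of unclustered summits (1596 of 2688, 57.5 to 61.2) and 59.2% of all kept summits. It was 54.8% without the histone summits (241 of 440). A coding gene body held 63.3% of clustered (58.8 to 67.5) and 65.3% of unclustered summits (63.5 to 67.1). No coding body, coding gene end or noncoding gene end was found for 55 clustered (11.5%, 8.93 to 14.6) and 359 unclustered summits (13.4%, 12.1 to 14.7). In each of these comparisons the Wilson intervals of clustered and unclustered summits overlapped, which is a description and not a test.

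The position around the start differed more. Within 250 bp of an annotated coding start lay 27.8% of clustered summits (130 of 467, 24.0 to 32.1) and 40.9% of unclustered ones (1064 of 2600, 39.0 to 42.8). Between 250 and 2000 bp from a start lay 33.0% (154, 28.9 to 37.4) against 17.3% (449, 15.9 to 18.8). Of the 154, 106 were downstream and 48 upstream, and of the 449, 281 were downstream and 168 upstream. Without the histone summits the shares were 29.0% (24.9 to 33.4) and 41.0% (39.1 to 42.9) within 250 bp, and 28.5% (24.4 to 33.0) and 17.1% (15.7 to 18.6) between 250 and 2000 bp. The downstream share among the latter was then 63.1% in the clustered and 62.6% in the unclustered set. Chromosome 18 is not in the table of starts and was left out of these shares. That table held 17492 of 21900 coding genes. A summit at a gene missing from it, such as Cdk19 or Eif4g2, was measured to the start of another gene. The effect of this on the shares was not tested. Membership requires another interval nearby, and intervals do not overlap, so at a single start usually only 1 member of a close pair can have its summit within 250 bp. The joining rule thus bears on both shares, and its part in them was not tested. Of the 154 clustered summits between 250 and 2000 bp, 29 (18.8%, 13.4 to 25.7) shared their nearest start with another member of the cluster that lay within 250 bp of it. The same limit holds for the shares by spacing, which is the value that chose the members, and these are given as a description with histone summits included. With a nearest member under 1 kb away, 35 of 163 summits lay within 250 bp of a start (21.5%, 15.9 to 28.4) and 78 between 250 and 2000 bp (47.9%, 40.3 to 55.5), of which 25 shared their nearest start with such a member. With the nearest member at 1 kb or more, the numbers were 95 (31.3%, 26.3 to 36.7) and 76 of 304.

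**Figure D4:**
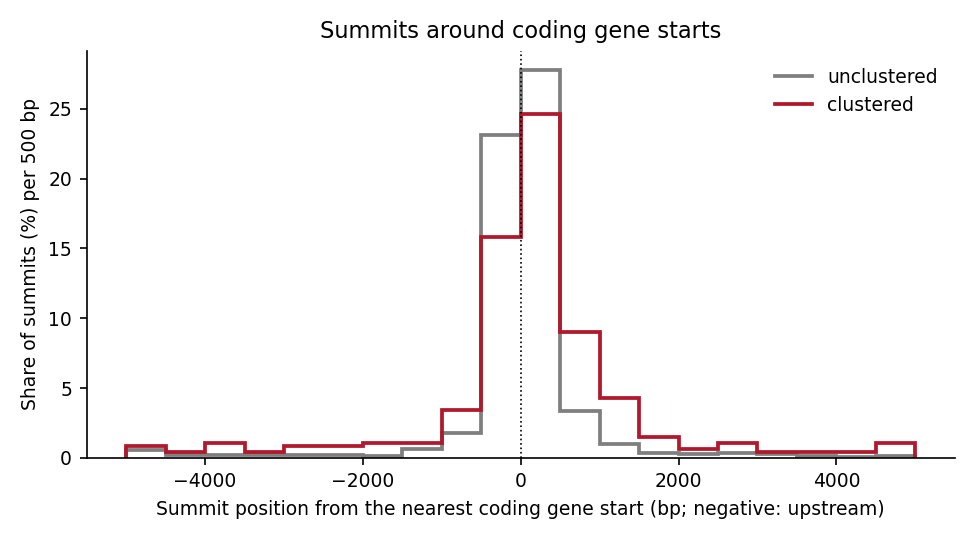
Share of summits in percent per 500 bp (vertical axis) by signed distance in bp from the nearest coding gene start, for clustered (red) and unclustered (grey) intervals. The clustered curve is lower in the bins beside the start and higher from 500 to 2000 bp on both sides, with 8.99% against 3.38% from 500 to 1000 bp downstream (4.91% against 3.39% without the histone summits) and 3.43% against 1.77% at the same distance upstream.

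Closely spaced members often stood on either side of a start. Of 256 neighbouring pairs on chromosomes with a table of starts, 39 had a coding start between their summits with each summit at most 1500 bp from it. Of the 85 pairs closer than 1 kb, 36 did so (42.4%, 32.4 to 53.0). Pairs at genes missing from that table, such as Cdk19 and Eif4g2, stayed in these totals but could not show a start, so the numbers may be too low. In 33 of the 39 the enclosed starts were on 1 strand. There the upstream summit was taller in 18 pairs, the downstream one in 13 and they were equal in 2, with median heights of 17 and 14. Pairs at histone genes are included in this tally. Among them the downstream summit was taller at H2bc13, H2ac13, H3c10, H4c9 and H3c8, and the upstream one at H2aw and H4c1. Examples chosen after their values were seen are Hdac2, a histone deacetylase gene (18 upstream and 14 downstream, gap 27 bp), Ppp3cb, a calcineurin subunit gene (36 and 14, 55 bp), and Sp3, a zinc finger factor gene (17 and 24, 98 bp). The summit of 24 at Sp3 also lay upstream of another, nearer annotated start, at -223 bp. A caller may split a broad enrichment, and whether these pairs are single enrichments cannot be told apart from the deposited calls.

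The 217 clusters were sorted by where their summits lay relative to the outer limits of coding genes, which leave out annotated starts inside a gene. In 42 (19.4%, 14.7 to 25.1) summits lay at ends of separate coding genes, with a median span of 8161.5 bp. Some of these clusters, such as that at Pitpnc1 and Psmd12, also had a summit away from any outer gene end. In 43 (19.8%) several summits lay at ends of the same gene or genes, either the same end or opposite ones, with a median span of 2045 bp. A single summit at an outer gene end was joined in 43 clusters by members inside the limits of the same gene and in 41 by members elsewhere. Another 24 lay inside the limits of 1 coding gene more than 1 kb from either, and 24 had neither an outer gene end nor a shared coding body. Many of the inside members were still close to an annotated start. Of the 43 clusters with the rest inside the gene, 42 were on chromosomes with a table of starts, and 20 of them had a member off the outer ends but within 1 kb of a start. In 7 of the 42 the members lay within 1 kb of starts of 2 or more genes. Of the 24 inside 1 gene, 22 were on such chromosomes and 8 had a member within 1 kb of a start. Starts of genes missing from that table could not be counted here. Counted by genes, 71 clusters (32.7%, 26.8 to 39.2) had summits at 2 or more coding genes, 98 at 1 and 48 at none.

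**Figure D5:**
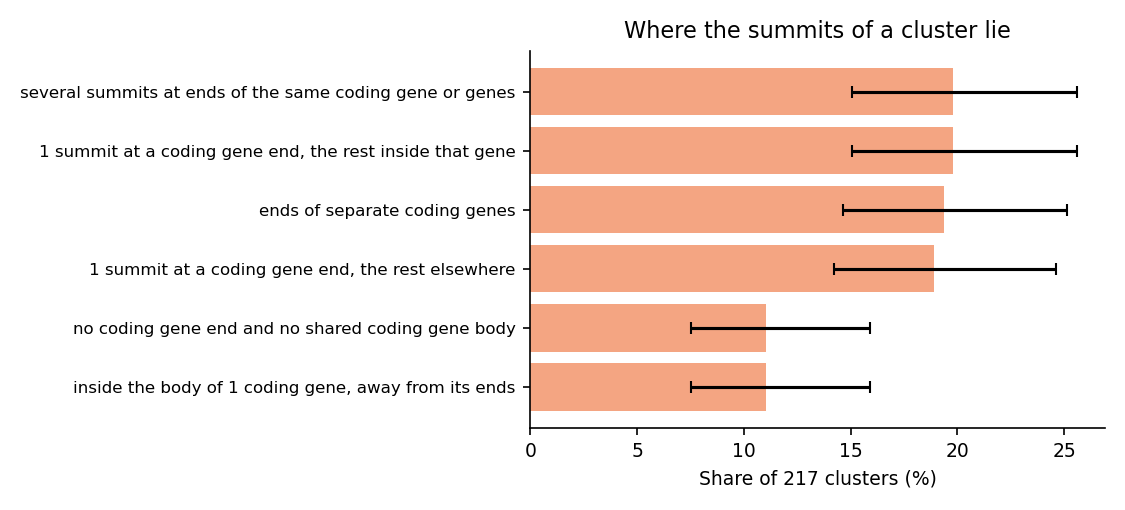
Share of the 217 clusters in percent (horizontal axis) in each of 6 layouts of their summits relative to the outer limits of coding genes, with 95% Wilson intervals as error bars. The 4 layouts with a summit at a coding gene end each hold 18.9% to 19.8%, and the other 2 hold 11.1% each.

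Clusters of 3 intervals included 3 at core and linker histone genes. The tallest of them, at chr13:21778757-21787002, had heights of 55 at H1f5, 34 at H3c11 and 16 at H2ac22 and H2bc22. H4c8, H2ac10 and H3c8 carried 30, 14 and 17, and H4c12, H2ac15 and H2bc15 carried 16, 19 and 23. At chr9:44319598-44335951 the heights were 13 at C2cd2l, 30 at Dpagt1 and 41 at H2ax, which encodes the histone variant phosphorylated at DNA breaks.

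The other clusters of 3, named here after their values were seen, held genes of several functions. Cell cycle and DNA genes were Cdkn1b, the cyclin-dependent kinase inhibitor p27 (20, 15 and 13), Mcm7, a subunit of the replicative helicase, with Cops6 and Zfp113 (13, 15 and 15), and Lig4, a DNA ligase of end joining, with Abhd13 (16, 18 and 14). Chromatin and transcription genes were Arid1a, a subunit of the BAF remodelling complex (11, 21 and 32), and Maz with Prrt2 and Kif22 (13, 17 and 24). Txnip, the thioredoxin-interacting protein gene, had 11, 16 and 21, and Coro1a, an actin regulator of lymphocytes, had 17, 13 and 14. Rplp0 and Gcn1 had 12, 18 and 16, Isy1 and Cnbp had 20, 11 and 23, Pitpnc1 and Psmd12 had 13, 15 and 24, and Mrpl58 had 19, 20 and 14. One cluster, at chr17:28387919-28397106, had 22, 13 and 13 with no coding gene end or body at any summit. The highest summit named in this group was the 32 at Arid1a.

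Among pairs, the highest summed height was at Adnp, which encodes a homeodomain zinc finger protein, at chr2:168205130-168208038. The lower summit of 29 lay inside the gene 1656 bp from an annotated start, and the other, of 66, lay upstream of one, at -312 bp. The pair at chr1:74386522-74392625 had 56 at Slc11a1 and 16 at Ctdsp1, a phosphatase gene. The pair at chr11:87422458-87427169 had 34 and 40 inside Tex14, far from its start.

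Both Tex14 summits lay at small nuclear RNA genes within that gene, 1 at Rnu1a1, a U1 gene, and 1 at Gm22068, which RefSeq also lists as small nuclear RNA. A second Tex14 pair, at chr11:87443321-87449232, had 24 and 10, with U3 genes (Rnu3b1 and Rnu3b3) at hand. Small nuclear RNA genes had an end within 1 kb of 12 clustered summits (2.51%, 1.44 to 4.33), whose median height was 24, and of 15 unclustered ones (0.558%, 0.338 to 0.919), whose median was 22. For transfer RNA genes the shares were 1.88% (9 summits, 0.992 to 3.53) and 0.893% (24, 0.601 to 1.33), with overlapping intervals and medians of 14 and 15. For small nucleolar RNA genes they were 0.418% (2, 0.115 to 1.51) and 0.856% (23, 0.571 to 1.28), also with overlapping intervals. RefSeq lists the U3 genes with the small nuclear RNAs, although U3 is a small nucleolar RNA. With U3 moved, the small nuclear shares were 2.09% (10, 1.14 to 3.80) and 0.558% (15), and the small nucleolar shares 1.04% (5, 0.447 to 2.42) and 0.856% (23), so the order of the latter rests on this labelling. Pairs at Gm25313 and Rnu5g, a U5 gene (37 and 17), and at Gm24497 and Gm25939 (24 and 23) had no coding gene end at either summit. In all, 23 clustered summits in 16 clusters lay at small nuclear, transfer or small nucleolar RNA genes, and 14 of the 23 had no coding gene end. These genes also come in near-identical copies, so the placement of reads among them is uncertain.

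Among pairs inside 1 gene and more than 1 kb from its outer ends, those with the highest sums after the first Tex14 pair lay in Gpc5, a glypican gene (19 and 45), Aff1, a gene of the elongation machinery (22 and 20), Clpb, a mitochondrial chaperone gene (15 and 27), and Ern1, a sensor of unfolded protein (18 and 21). The pairs with the smallest gaps were at Rps14 (2 bp, 18 and 10), Aptx and Dnaja1 (4 bp, 11 and 16), Fhl4 and Tmem263 (7 bp, 16 and 13), a pair of histidine transfer RNA genes (8 bp, 14 and 9) and Strn3 (16 bp, 12 and 14). Pairs at Sox4 (16 and 12) and Kpna1 (14 and 15) tied with Strn3 at 16 bp. The highest summit among these 7 pairs was 18.

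Among T-cell genes, 3 had an end at a clustered summit. Of 27 T-lineage transcription factor genes, 8 (29.6%) had an end within 1 kb of a kept summit and 1 (3.70%), Satb1, of a clustered one, beside 11% and 1.38% of all coding genes. Satb1, a chromatin organizer of thymocytes, carried 11 and 11 at chr17:51828112-51832773. Of 26 T-cell receptor and coreceptor genes, 5 (19.2%) were at a kept summit and 2 (7.69%) at clustered ones. These were Cd3g (10) and Cd3d (15), neighbours that encode chains of the T-cell receptor complex, at chr9:44979682-44982310 with a gap of 980 bp. The Cd3g summit lay 322 bp and the Cd3d summit 102 bp downstream of the respective start. Named after their values were seen, summits more than 1 kb from the outer gene ends lay in Bcl11b (13 and 11, gap 297 bp) and Ets1 (20 and 13, gap 9333 bp), both T-cell factors, and at Ikzf1, which encodes Ikaros (25 upstream, and 14 inside the gene and 123 bp from a further annotated start). None of these heights exceeded 25.

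In the Notch pathway, 8 of 24 genes (33.3%) were at a kept summit and 1 (4.17%) at a clustered one, beside 11% and 1.38% of all coding genes. This was Notch1, the receptor gene most often activated in T-cell leukemia. Its pair at chr2:26449361-26459167 had heights of 16 and 16 and a gap of 7999 bp. Notch1 spans chr2:26457902-26503822. The summit at 26458816 lay inside it near the end away from its start, and the summit at 26449696 lay outside it, at -4480 bp from the start of Sec16a. Both heights were close to the median of 15. The study reports Dlx5 binding at Notch1 enhancers in and downstream of the gene, followed up by ChIP-qPCR, reporter and chromosome conformation assays. Whether these summits match those elements was not examined. Among 30 genes that the study names on these chromosomes, 8 (26.7%) were at a kept summit and 1 (3.33%), again Notch1, at a clustered summit. No clustered summit lay within 10 kb of Notch3, Irs2 or Ccnd1. The study reports Dlx5 binding at each of these genes, and an interval without a close neighbour is not a member here.

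Several other gene families that lie in tandem had no kept summit. No end of 30 Hox, 8 Gimap, 1095 olfactory receptor, 57 protocadherin, 27 keratin or 37 chemokine genes lay within 1 kb of any kept summit. Of 38 MHC genes (H2), 2 were at a kept summit and H2-DMa at a clustered one. Zinc finger Zfp genes were at kept summits in 40 of 377 cases (10.6%) and at clustered ones in 5 (1.33%), close to the 11% and 1.38% of all coding genes. Ribosomal protein genes, which are scattered and not in tandem, were at kept summits in 42 of 76 cases (55.3%) and at clustered ones in 7 (9.21%). The 7 were Rplp0, Rps19, Rplp2, Rpl38, Rpl35a, Rpl36 and Rps14. Of 21 small nucleolar RNA host genes, 9 were at a kept summit and Nop56 at clustered ones.

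Promoter letters differed between the histone genes and the other clustered genes. Among promoters whose start lay within 1 kb of a clustered summit, 39 were of histone genes and 242 of others. They were set beside 1912 promoters near an unclustered summit only and 19559 coding promoters in all. TAATT, on either strand, was in 33.3% of the histone promoters (13 of 39, 20.6 to 49.0), in 11.2% of the others (27 of 242, 7.78 to 15.7), in 13.7% of the unclustered ones (12.2 to 15.3) and in 23.4% of all (22.8 to 24.0). CCAAT was in 87.2%, 37.6%, 36.2% and 38.2%, and TATAAA in 59.0%, 6.20%, 5.33% and 12.8%. GGGCGG, a GC box, was in 41.0%, 66.5%, 71.0% and 46.9%, and CCGGAA, an ETS-type core, in 2.56%, 30.2%, 38.3% and 19.1%. The median GC content was 44.3%, 62.3%, 63.5% and 56.7% in the same order. Base composition thus moved with these shares, and its part in them was not tested. TAATT and CCAAT can share bases when they overlap, and each was counted on its own. Letters were read in the promoter stretches only, because no genome sequence was at hand to read them at the summits. The median histone summit, at 595.5 bp downstream of the start, lay outside these stretches. The study's own motif search assigned most of its Dlx5 consensus to TAATT, and the promoter shares do not address that result.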

How the data were processed

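ChIP and input libraries of a Lck-Dlx5 lymphoma were compared by called intervals. Reads were sequenced on an Illumina GA II, mapped with BWA according to the submitters' processing notes, with MACS as the caller of peaks. An IgG control is named in the methods and an input in the labels, and which was used in calling is not given in the sources used here, nor are the versions or the threshold. The authors deposited tracks of intervals with start and end positions, and for each summit a score (its height). Depth per sample is unknown.

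Summits were joined to their intervals, intervals sharing at least 1 bp with an input interval were dropped, and the rest were joined below 10 kb. Gene ends came from RefSeq (GRCm38.p6) and starts and strands from its promoter table, which held 17492 of 21900 coding genes. Members and gene lists were chosen with earlier results of these data known. Named were clusters of 4 or more intervals, the 5 smaller ones with the highest sums, the 5 with the smallest gaps, those nearest to the 10 kb limit, those at T-cell, Notch or study-named genes, and the top 5 within a gene. Python 3.11.15, pandas 2.3.3 and numpy 2.4.6 were used. Joining was tested on simulated data. Alternatives changed the joining distance, height minimum, input rule, chromosomes and gene ends.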

Additional observations from a re-analysis of the deposited data

How the results depend on the processing

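Of 55 values recomputed under alternatives, 39 stayed within 1.5 times the main count or inside the 95% interval of the main share, and 16 did not. Joining below 20 kb gave 54 clusters of 3 or more intervals in place of 24, and joining below 5 kb moved none of the values beyond these bounds. A height of at least 16, the median of all Myc-Tag summits, left 140 clustered intervals in 66 clusters, 6 of them of 3 or more, with 62.9% of summits within 1 kb of a coding gene end, 48.5% of clusters at 2 or more coding genes and 23 intervals at clustered histone genes. A height of at least 19 left 68 intervals in 34 clusters and 0 of 3 or more. A gene end within 500 bp gave 45.5% of summits and 25.3% of clusters at 2 or more genes, within 5 kb 81% and 47%, and ends of all annotated genes 65.6% and 48.8%. Merging intervals less than 250 bp apart, chosen after seeing the data, left 386 intervals in 178 clusters. Without the histone intervals 438 remained in 207 clusters. A height minimum lowers the counts by construction, and the cause of the moved shares was not tested. Unknown depth limits what the absence of an interval shows. No paired analysis was possible because the ChIP and the input are single libraries, and none could be left out.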
